A study of Mus musculus with 25 samples.

Results

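*Cdk5* and 6 listed genes near it on mouse chromosome 5 were followed in RNA-seq of hematopoietic stem cells with and without *Znf143*, to see whether genes on divergent and nearby promoters are lower together with *Cdk5*. The 7 genes are *Abcb8*, *Asic3*, *Cdk5*, *Slc4a2*, *Fastk*, *Tmub1* and *Agap3*, in this order along the chromosome. Of these, 6 have a row among the 23116 genes of the deposited table, and *Asic3* was not analysed here. The genes were chosen with their values in these libraries known, so that their differences between genotypes are given as a description without a test. In *Znf143 -/-* cells, *Cdk5*, *Fastk* and *Tmub1* were at 20.5%, 38.0% and 12.6% of their *Znf143 f/f* means, whereas *Slc4a2*, *Abcb8* and *Agap3* stood at 85.8%, 122% and 89.5%.

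ZNF143 is a zinc finger transcription factor that binds promoters, often close to the start of transcription, and CTCF is a zinc finger protein that anchors chromatin loops. When a pair of genes is divergent, the genes are read in opposite directions from starts that lie close together, so that both can share one stretch of promoter. Neighboring promoters can also be brought together by chromatin loops.

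The cells were HSLAM cells (LSK+ CD150+ CD48-), a sorted bone marrow population rich in hematopoietic stem cells. They came from 3 *Znf143 f/f* x *Rosa26ERT2-Cre-* mice, here *Znf143 f/f*, and 3 *Znf143 f/f* x *Rosa26ERT2-Cre+* littermates, here *Znf143 -/-*. All mice were C57BL/6 males of 8 to 12 weeks, both genotypes carried floxed alleles with loxP sites around exon 1, and both were given tamoxifen at the middle dose tested, for 10 days. The Cre is driven from the *Rosa26* locus and is therefore not restricted to blood cells, and Cre itself was present in the *Znf143 -/-* mice only. Labels of the deleted samples read CTCF KO, whereas the methods describe a deletion of *Znf143*, which the table lists under its mouse symbol *Zfp143*.

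*Zfp143* had an FPKM (fragments per kilobase of gene, scaled to the depth of the library) of 3.06, 4.03 and 3.63 in the *Znf143 f/f* and of 0.145, 0.303 and 0.326 in the *Znf143 -/-* libraries, a log2 difference of -3.39 (SE 0.278, adjusted p = 0.00045, limma with Benjamini-Hochberg adjustment). Fragments on genes ranged from 38643255 to 57895793 per library. The FPKM of the third *Znf143 -/-* library were computed with the fragment total of the second, so that they are 1.197 times too high. The median log2 difference of all 19296 genes tested was 0.114, and 0.0075 once the libraries had been brought to one scale with median-of-ratios size factors, here called rescaling. Differences below are read against these medians. With limma, 304 genes passed an adjusted p of 0.05 as lower and 529 as higher, and 577 and 580 after rescaling. Of 9 stem and progenitor markers, *Ly6a* rose (adjusted p = 0.00379, limma) and the other 8 did not pass the test. The summed FPKM of all 9 was 460.0 to 557 in *Znf143 f/f* and 739 to 945 in *Znf143 -/-* libraries, and without *Ly6a* it was 242 to 270.0 and 178 to 281. Of 11 markers of cells that the gate should remove, 10 had a row, *Cd48* (adjusted p = 0.00685) and *Elane* (0.0129, limma) rose, and the sum was 22.0 to 32.6 against 32.0 to 53.8. The 8 without a call summed to 11.9 to 22.4 against at most 18.2, with opposite directions among them. *Hba-a1* averaged an FPKM of 11.42 in *Znf143 f/f* and 6.015 in *Znf143 -/-* libraries, *Mpo* 1.17 and 3.74, and *Klrb1c* 2.13 and 4.30. The others had lower means in both genotypes. *Cd48* passed in all 17 alternatives, *Ly6a* in 16, *Elane* in 13, *Mpo* in 3 and *Klrb1c* in 1. Leaving out the second or the third *Znf143 -/-* library ended the call of *Elane* (adjusted p = 0.0801 and 0.132 from limma). *Cd3e*, a component of the T cell receptor complex, was at or near 0, with at most 10 fragments in a library. The part of these shifts in the differences below was not tested.

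The gene order sets up several kinds of neighbors. *Cdk5* (chr5:24418241-24423530 of GRCm38, minus strand) and *Slc4a2* (chr5:24423837-24440950, plus strand) are divergent, with annotated starts 307 bp apart. *Fastk* (chr5:24438440-24445287) and *Tmub1* (chr5:24445458-24447854) follow on the minus strand, one behind the other, with 170 bp between the end of *Tmub1* and the start of *Fastk*. *Tmub1* is itself divergent with the long noncoding RNA gene *2310074N15Rik* (chr5:24447908-24448489, plus strand), with starts 54 bp apart. *Abcb8* (chr5:24393663-24410054) and *Agap3* (chr5:24452177-24502047), both on the plus strand, lie at the edges, with starts 29867 bp before and 28647 bp after that of *Cdk5* in chromosome coordinates. *Asic3* (chr5:24413392-24417835) ends 405 bp from the end of *Cdk5*.

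The promoter sequences shown are the one before *Tmub1* and the one between *Tmub1* and *Fastk*, which both lie beside genes that were lower. Read on the strand of *Tmub1*, the *Tmub1* sequence begins inside the *2310074N15Rik* gene. It takes in the stretch between *2310074N15Rik* and *Tmub1* and ends inside the annotated *Tmub1* gene. Most of the sequence lies inside the *2310074N15Rik* gene. As that of a gene that was not called, the sequence before the first *Slc4a2* start that RefSeq gives is also shown. This *Slc4a2* start lies 1702 bp from the *Cdk5* start, so that the *Slc4a2* sequence is not the stretch between the divergent starts of *Cdk5* and *Slc4a2*, which is not shown. They are written 5′ to 3′ on the strand of the gene, from GRCm38.p6, with the letters of searched motifs in capitals. The stretches are the 250 bases before the RefSeq start of *Tmub1* (chr5:24447847-24448096), the 170 bases between *Tmub1* and *Fastk* (chr5:24445288-24445457) and the 250 bases before the RefSeq start of *Slc4a2* (chr5:24424982-24425231). *Cdk5*, *Abcb8* and *2310074N15Rik* have no entry in the promoter table.
Tmub1: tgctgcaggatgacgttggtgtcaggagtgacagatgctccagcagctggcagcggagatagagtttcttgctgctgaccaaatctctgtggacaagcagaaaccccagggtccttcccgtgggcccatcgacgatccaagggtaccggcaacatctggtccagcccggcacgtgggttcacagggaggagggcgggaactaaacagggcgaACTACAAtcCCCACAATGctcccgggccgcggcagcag
Fastk: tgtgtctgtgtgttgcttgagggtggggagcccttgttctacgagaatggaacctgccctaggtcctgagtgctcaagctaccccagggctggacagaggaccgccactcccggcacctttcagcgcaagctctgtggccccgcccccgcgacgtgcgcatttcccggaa
Slc4a2: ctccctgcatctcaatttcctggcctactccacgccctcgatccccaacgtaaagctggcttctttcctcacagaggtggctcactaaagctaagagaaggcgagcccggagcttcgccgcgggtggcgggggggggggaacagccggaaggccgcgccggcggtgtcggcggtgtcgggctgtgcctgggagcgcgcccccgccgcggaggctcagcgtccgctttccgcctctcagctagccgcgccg

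The capitals in the *Tmub1* sequence mark ACTACAA, from 38 bases before the RefSeq start (chr5:24447878-24447884), and CCCANNATG, from 29 bases before it (chr5:24447867-24447875), both in the direction of *Tmub1*. Both lie within the 53 bases between the annotated starts of *Tmub1* and *2310074N15Rik*. Searched on both strands were TTCCCAG, CCCAGNATG and ACTACAA, which are parts of the ZNF143 motif, and CCANNAGNG, a core of the CTCF motif. CCCANNATG was added after the *Tmub1* sequence had been seen, it covers all matches of CCCAGNATG, and CCCAG is shared by TTCCCAG and CCCAGNATG. Of 32851 RefSeq promoters of 300 bases (250 before to 50 after the start), 3.24% hold ACTACAA, 5.01% CCCANNATG, 2.04% CCCAGNATG, 11.1% TTCCCAG and 17.9% CCANNAGNG. The promoter of *Fastk*, that of *Agap3*, that of *Asic3* and the first of *Slc4a2* hold none of these letters, and the second *Slc4a2* promoter (chr5:24425594-24425893) holds CCANNAGNG. In a window of 500 bases before to 100 after the start, *Tmub1* and *Fastk* also hold TTCCCAG (20.5% of all such windows) and *Fastk* CCANNAGNG (31.5%). The ratio of observed to expected CpG was 0.953 and 0.575 in the *Slc4a2* promoters, 0.773 in that of *Fastk* and 0.6 in that of *Tmub1*. It was 1.03 in that of *Agap3* and 0.267 in that of *Asic3*, where the median promoter of the table has 0.384. A match of letters is a description and not a binding site, and ChIP-seq signals were not analysed here.

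*Cdk5*, a cyclin-dependent kinase best known from neurons that is activated by p35 and p39 instead of a cyclin, had an FPKM of 16.8, 15.1 and 14.8 in *Znf143 f/f* and of 2.26, 3.42 and 3.89 in *Znf143 -/-* libraries. All *Znf143 -/-* libraries lay far below all *Znf143 f/f* libraries. The means were 15.6 ± 1.06 and 3.19 ± 0.840 (SD, n = 3 each), resting on 233 to 1774 fragments. The difference of log2(FPKM + 0.1) was -2.28 (SE 0.217, 95% confidence interval -2.78 to -1.79), and -2.40 after rescaling. In the table, 77 genes had a lower one.

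*Slc4a2*, the chloride/bicarbonate exchanger AE2, lies across the divergent promoter and had much lower values than *Cdk5* in *Znf143 f/f* cells. Library by library, the FPKM of *Slc4a2* was 1.42, 1.68 and 1.40 in *Znf143 f/f* and 1.31, 1.17 and 1.38 in *Znf143 -/-* libraries. The genotypes were just apart, since the highest *Znf143 -/-* value (1.381) and the lowest *Znf143 f/f* value (1.400) were nearly equal. The means were 1.501 ± 0.155 and 1.29 ± 0.106 (SD, n = 3 each), resting on 457 to 756 fragments. The log2 difference was -0.21 (SE 0.206, 95% confidence interval -0.67 to 0.26), and -0.31 after rescaling.

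The annotation gives *Slc4a2* several starts, and the deposited values sum over all of them. The 3 transcripts whose starts lie 307 to 329 bp from the *Cdk5* start, across the shared promoter, are short forms that end at 24427612, 24429882 and 24430149. The forms that reach the 3′ end of the gene start 1702, 4678 and 4893 bp from the *Cdk5* start. A change in the short forms alone can therefore not be read from the *Slc4a2* value. The 3′ ends of *Slc4a2* and *Fastk* also overlap on opposite strands, by 1141 exon bases, which are 13.7% of the exon bases of *Slc4a2* and 26.1% of those of *Fastk*. The library kit does not mark strand, so that reads in this stretch cannot be told apart.

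*Tmub1*, a membrane protein with a ubiquitin-like domain that takes part in the degradation of proteins of the endoplasmic reticulum, had the largest difference of the 6 genes. Among the libraries, *Tmub1* had an FPKM of 26.8, 26.5 and 26.7 in *Znf143 f/f* and 3.70, 2.81 and 3.54 in *Znf143 -/-* libraries. The *Znf143 f/f* libraries were close to each other, and no *Znf143 -/-* library came near them. The means were 26.7 ± 0.168 and 3.35 ± 0.478 (SD, n = 3 each), resting on 255 to 2694 fragments. The log2 difference was -2.97 (SE 0.165, 95% confidence interval -3.34 to -2.59), and -3.08 after rescaling, and 33 genes of the table had a lower one. With voom on recovered fragments it was -3.13 and with a pseudocount of 1 it was -2.68.

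*Fastk*, the founding member of a family of mitochondrial RNA-binding proteins, starts 2567 bp from the *Tmub1* start. Single libraries had an FPKM of 11.003, 8.83 and 10.4 in *Znf143 f/f* and 3.58, 3.58 and 4.32 in *Znf143 -/-* libraries. The genotypes were again fully apart, by a smaller distance than for *Cdk5* and *Tmub1*. The means were 10.1 ± 1.12 and 3.83 ± 0.428 (SD, n = 3 each), resting on 744 to 2089 fragments. The log2 difference was -1.37 (SE 0.175, 95% confidence interval -1.77 to -0.98), and -1.49 after rescaling.

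At the edges, the libraries of both genotypes overlapped. *Abcb8*, an ABC transporter of the inner mitochondrial membrane, had an FPKM of 15.03, 10.8 and 13.2 in *Znf143 f/f* and of 13.7, 15.6 and 18.2 in *Znf143 -/-* libraries. The log2 difference was 0.29 (SE 0.184, 95% confidence interval -0.13 to 0.71), and 0.18 after rescaling. *Agap3*, a GTPase-activating protein for Arf, had an FPKM of 6.92, 4.23 and 6.24 in *Znf143 f/f* and of 3.81, 5.58 and 6.17 in *Znf143 -/-* libraries. Its log2 difference was -0.16 (SE 0.252, 95% confidence interval -0.73 to 0.41), and -0.27 after rescaling. For both genes the spread between libraries was wide enough to leave room for a modest change in either direction.

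**Figure D1:**
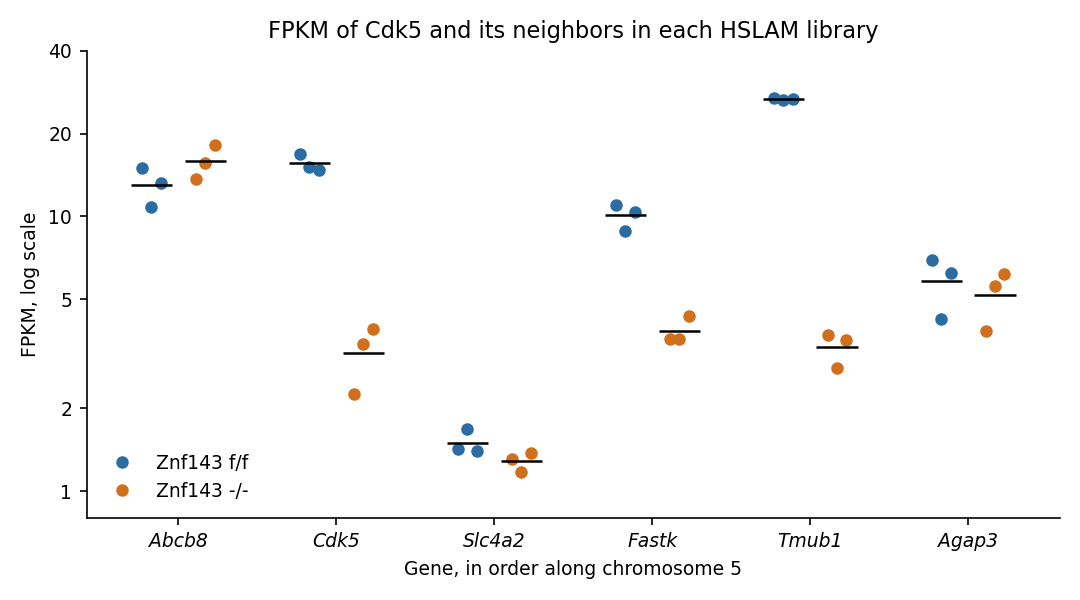
FPKM on a log scale of the 6 genes with a row in the table, in order along chromosome 5, in 3 *Znf143 f/f* (blue) and 3 *Znf143 -/-* (orange) HSLAM libraries. Points are libraries and lines are group means. *Cdk5*, *Fastk* and *Tmub1* sit far apart between genotypes, *Slc4a2* barely so, and *Abcb8* and *Agap3* overlap.

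FPKM are per length and allow the genes to be ordered by level. In *Znf143 f/f* cells, the order of mean FPKM was *Tmub1* (26.7), *Cdk5* (15.6), *Abcb8* (13.0), *Fastk* (10.1), *Agap3* (5.80) and *Slc4a2* (1.501). The library ranges of *Cdk5* and *Abcb8* and of *Abcb8* and *Fastk* overlapped. In *Znf143 -/-* cells, *Abcb8* (15.9) came first and *Slc4a2* (1.29) last, and *Agap3* (5.19), *Fastk* (3.83), *Tmub1* (3.35) and *Cdk5* (3.19) lay between with overlapping ranges from each to the next. The genes that were lower thus stood at similar levels without *Znf143*, although their *Znf143 f/f* levels had differed. In bulk libraries, less RNA per cell cannot be told apart from fewer cells that express a gene.

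By the limma fit, 3 of the 6 genes were called lower and none higher at an adjusted p under 0.05, where 1.58% of the 19296 genes tested were called lower. In 4 of the 6 genes, every *Znf143 -/-* value was lower than every *Znf143 f/f* value, which held for 8.43% of the genes tested. Nothing is read from these counts, since the genes were chosen on this contrast. The median log2 difference was -0.79 over the 6 genes and 0.114 over all genes tested. *Cdk5*, *Fastk* and *Tmub1* passed the same threshold in all 17 alternative fits, and *Slc4a2*, *Abcb8* and *Agap3* in 0 of 17. The 3 genes are also on the study's list of ZNF143 direct targets. The paper drew up this list from gene expression together with ZNF143 localization at promoters. Its expression side comes from these libraries, so that it is no independent evidence. Whether *Slc4a2*, *Abcb8* and *Agap3* are on it, and what share of all genes is, is not given here.

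The genes around the 7 were then taken by position alone, as every other gene of the table whose start lies within 250 kb of the *Cdk5* start. Of 12 such genes, 11 reached the mean FPKM of 0.1 required for testing, and 0 were called by limma or by voom, where 4.32% of all genes tested were called by limma and 7.26% by voom in either direction. At an unadjusted p under 0.05, 1 of the 11 passed, against 19.1% of all genes tested. The gene with the lowest log2 difference was *2310074N15Rik*, the divergent partner of *Tmub1*. The lincRNA had an FPKM of 1.42, 1.46 and 1.55 in *Znf143 f/f* and 0.794, 0.107 and 0.604 in *Znf143 -/-* libraries. All *Znf143 -/-* libraries lay below, from as few as 3 fragments in the second. The log2 difference was -1.64 (SE 0.489, unadjusted p = 0.00859, adjusted p = 0.109 from limma). The adjusted p ranged from 0.0416 to 0.247 over 16 alternatives, of which 3 passed 0.05 (a pseudocount of 1 at 0.0479, the replicate block at 0.0416, and leaving out the first *Znf143 -/-* library at 0.0460).

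The other 10 genes tested had log2 differences from -1.09 to 0.88, with adjusted p from 0.303 to 0.992 in limma, and 2 of them lie close to the 7 genes. *Atg9b*, an autophagy gene divergent with *Abcb8* at 1520 bp between starts, had a log2 difference of 0.24 (SE 0.244, adjusted p = 0.631), and *Nos3*, the endothelial nitric oxide synthase, of 0.01 (SE 0.301, adjusted p = 0.992). *Kcnh2*, a potassium channel 71926 bp from the *Cdk5* start, averaged 1.44 ± 0.260 in *Znf143 f/f* and 1.01 ± 0.259 in *Znf143 -/-* libraries (FPKM, SD, n = 3 each), a log2 difference of -0.48 (SE 0.256, adjusted p = 0.350). On the far side of *Agap3*, *Asb10*, *Abcf2*, *Gm10221*, *Chpf2* and *Smarcd3* had values from 0.21 to 0.88. The lowest of the 10 was the pseudogene *Gm5575*, with at most 12 fragments in a library, and the pseudogene *Gm9836* stood at 0.35. Leaving out the first *Znf143 -/-* library made *Abcf2* pass (0.67, adjusted p = 0.0351), and leaving out the second *Znf143 f/f* library made *Gm5575* pass (-1.73, adjusted p = 0.0110).

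**Figure D2:**
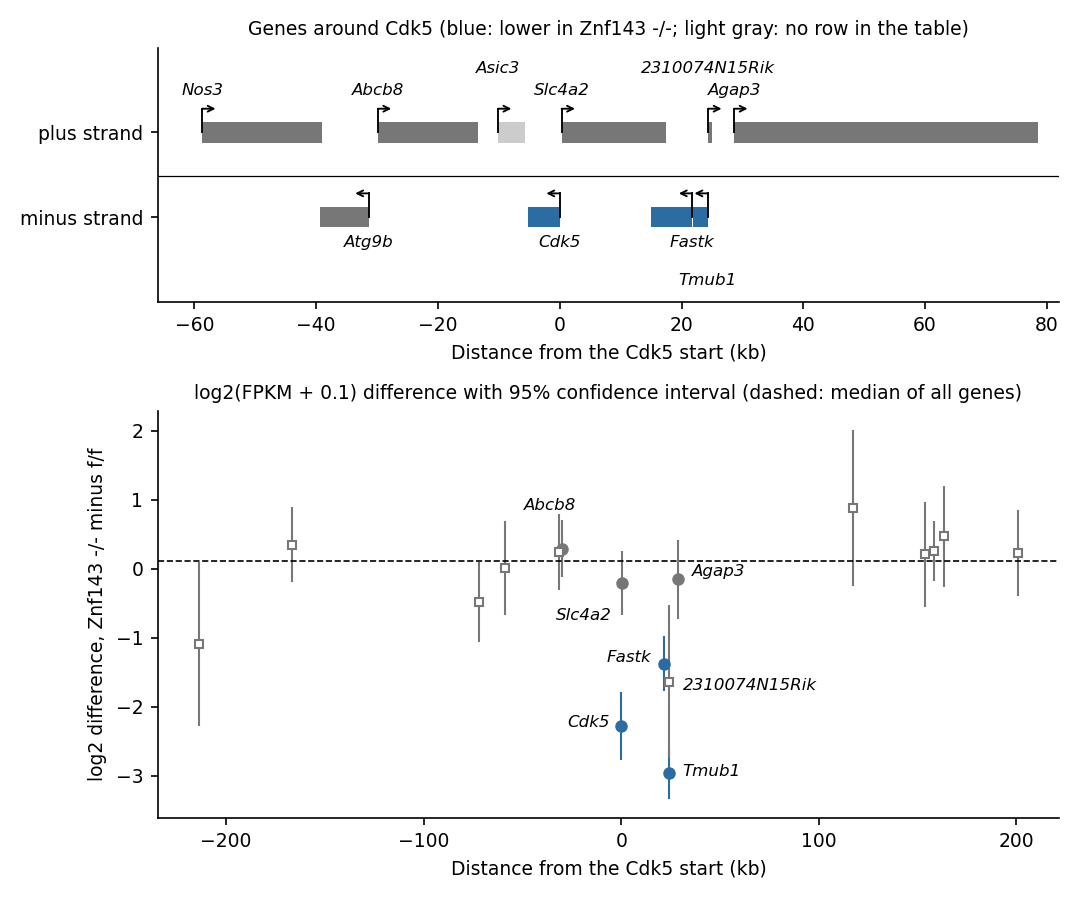
Above, genes with a tested row around *Cdk5* and *Asic3* by distance from the *Cdk5* start in kb, drawn to scale, with arrows at their starts. Below, the log2 difference with its 95% confidence interval for members (filled) and other genes within 250 kb (open squares). *Cdk5*, *Fastk* and *Tmub1* (blue) lie below -1, as do *2310074N15Rik* (-1.64, interval -2.75 to -0.53) and *Gm5575* (-1.09, interval -2.28 to 0.10), which were not called. The intervals of the other genes hold the dashed median of 0.114, except that of *Kcnh2* (-1.06 to 0.10).

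Genes called lower that crowd together were counted over the whole genome, with a measure chosen after the values had been seen. By limma as deposited, 1 stretch of 25 kb held at least 3 starts of genes called lower, and it is the stretch of 24324 bp from *Cdk5* to *Tmub1*. It was counted in all 17 alternatives too. After rescaling 1 further stretch was counted, on chromosome 16, without the second *Znf143 f/f* library 3 further ones, and without the first *Znf143 -/-* library 1 further one. The stretch led to the choice of these genes, and the count is a description.

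Divergent pairs elsewhere in the genome, which did not enter the choice of the 7 genes, were described in the same way. Of 622 pairs of tested protein-coding genes with starts at most 1000 bp apart, 13 had at least 1 gene called lower by limma. In 2 of the 13 both genes were called lower, and in 11 the other gene was not called, where 1.44% of the 12707 coding genes tested were called lower. The other genes of these 11 pairs had a median log2 difference of -0.18, and 8 of them were below 0. They ranged from -0.893 (*Uqcr10*) to 0.457 (*Hist2h2ab*), so that a partner without a call was not always unchanged in value. For *Slc4a2* the value was -0.21.

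The pairs with both genes called lower were *Mmachc* and *Ccdc163* on chromosome 4, with starts 103 bp apart, and *Acad8* and *Thyn1* on chromosome 9, with starts 144 bp apart. *Mmachc*, which processes vitamin B12, had an FPKM of 17.0, 16.2 and 17.9 in *Znf143 f/f* and of 1.38, 1.80 and 2.49 in *Znf143 -/-* libraries (log2 difference -3.14, SE 0.221, adjusted p = 0.000273 from limma). *Ccdc163* fell with it from 4.82 to 0.395 in mean FPKM (log2 difference -3.35, SE 0.255, adjusted p = 0.000342 from limma). *Acad8*, a mitochondrial acyl-CoA dehydrogenase of valine breakdown, fell from 7.64 to 3.32 (log2 difference -1.21, SE 0.233, adjusted p = 0.0230) and *Thyn1* from 45.6 to 25.2 (log2 difference -0.85, SE 0.168, adjusted p = 0.0266 from limma). *Mmachc* and *Ccdc163* passed in all 17 alternatives, *Acad8* in 12 and *Thyn1* in 9. Leaving out replicate 1 or 3 of *Znf143 f/f* or replicate 2 or 3 of *Znf143 -/-* ended the calls of *Acad8* (adjusted p from 0.0609 to 0.0832 in limma) and of *Thyn1* (0.0544 to 0.112). Near to *Cdk5* and *Slc4a2* in values were *Ccdc92* and *Zfp664*, with log2 differences of -2.07 and -0.135 at 267 bp. So were *Dnajc12* and *Sirt1*, with -2.40 and 0.01 at 739 bp. Both pairs were chosen after their values had been seen.

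**Figure D3:**
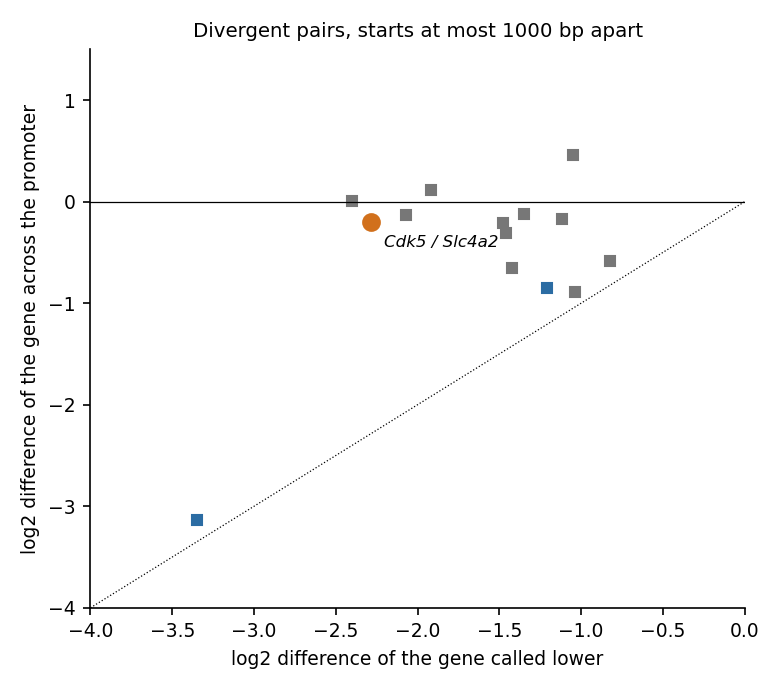
Each square is 1 of the 13 divergent pairs with at least 1 gene called lower, by the log2 difference of the gene called lower (x) and of the gene across the promoter (y). Blue squares are the 2 pairs with both genes called lower, the orange circle is *Cdk5* and *Slc4a2*, and the dotted line marks equal differences. Most squares lie near 0 on the y axis, far above the dotted line.

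Relatives and partners of the 7 genes were described from 8 lists with 69 genes, of which 57 were tested. With limma, 0 were called lower and 1 higher, where 4.32% of all genes tested were called. At an unadjusted p under 0.05, 1 was lower and 7 were higher, against 6.09% and 13.0% of all genes tested. With voom, 4 were called lower and 1 higher, against 3.86% and 3.4% of all genes tested. The median log2 difference of the 57 was 0.06, and that of all genes 0.114. None of the lists held a gene called lower as deposited, whereas rescaling called *Cables1* (-0.69, adjusted p = 0.0382) and *Adap1* (-0.52, adjusted p = 0.0497) lower, where it called 2.99% of all genes tested lower and 3.01% higher.

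Among 10 activators and partners of *Cdk5*, the median was 0.01, with values from -0.58 to 0.61. *Capns1*, the small calpain subunit, had a mean FPKM of 67.6 ± 5.58 and 61.1 ± 5.80 (SD, n = 3 each; log2 difference -0.15, adjusted p = 0.626 from limma), and *Ccni*, cyclin I, one of 34.5 ± 0.861 and 34.9 ± 5.62 (log2 difference 0.01, adjusted p = 0.991). *Cables1*, which links *Cdk5* to Abl kinases, had a log2 difference of -0.58 (SE 0.215, adjusted p = 0.183). The kinases closest to *Cdk5* had a median of 0.00384 over 4 genes. *Cdk17* (14.7 ± 2.46 and 14.3 ± 3.45) and *Cdk16* (7.31 ± 1.10 and 9.06 ± 1.93) were the most abundant, with adjusted p of 0.933 and 0.493 from limma.

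The FASTK family stood highest, with a median of 0.51 over 5 genes, and no member of it passed the test. *Fastkd2*, which acts on mitochondrial ribosome assembly, had a mean FPKM of 5.14 ± 1.87 and 7.98 ± 2.62 (log2 difference 0.64, adjusted p = 0.352 from limma), and *Tbrg4* of 4.29 ± 0.202 and 6.20 ± 0.852 (log2 difference 0.51, adjusted p = 0.152). Of 15 relatives of *Tmub1* and genes of endoplasmic reticulum-associated degradation, the median was 0.14 and the values lay between -0.25 and 0.40. *Vcp*, the ATPase that extracts proteins for degradation, had 58.0 ± 6.72 and 71.0 ± 13.8, and *Herpud1* 61.2 ± 2.09 and 63.0 ± 10.7, with adjusted p of 0.447 and 0.945 from limma.

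The list of bicarbonate transporters, *Car2* and *Slc4a1ap*, which is not itself a transporter of this family, had a median of -0.03 over 5 genes tested of 11 listed. *Car2*, carbonic anhydrase 2, was the most abundant gene of the lists, with 1001 ± 10.3 and 824.5 ± 106 (log2 difference -0.29, adjusted p = 0.332 from limma), and *Slc4a1ap* had 4.82 ± 0.502 and 4.89 ± 0.777 (adjusted p = 0.979). In the list of mitochondrial ABC transporters and *Ccdc51*, *Ccdc51* (13.7 ± 2.79 and 11.3 ± 1.21) had an adjusted p of 0.507 from limma, and the median of 4 genes was 0.19. Of 4 ASIC channels 1 was tested, *Asic1*, with a log2 difference of -0.16 (adjusted p = 0.873). Among 13 Arf GTPase activating proteins and *Arf6*, the median was -0.01, and *Arf6* (129 ± 16.0 and 128 ± 20.6) and *Acap1* (31.9 ± 2.84 and 37.0 ± 8.18) had adjusted p of 0.977 and 0.628 from limma. *Asap3* rose from 0.0413 ± 0.0145 to 0.302 ± 0.0502 (log2 difference 1.51, SE 0.336, adjusted p = 0.0420 from limma), from 6 to 9 fragments in *Znf143 f/f* libraries, and passed in 7 of 16 alternatives, with adjusted p from 0.00872 to 0.168. Leaving out any library but the second *Znf143 f/f* one ended its call (adjusted p from 0.0518 to 0.168).

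**Figure D4:**
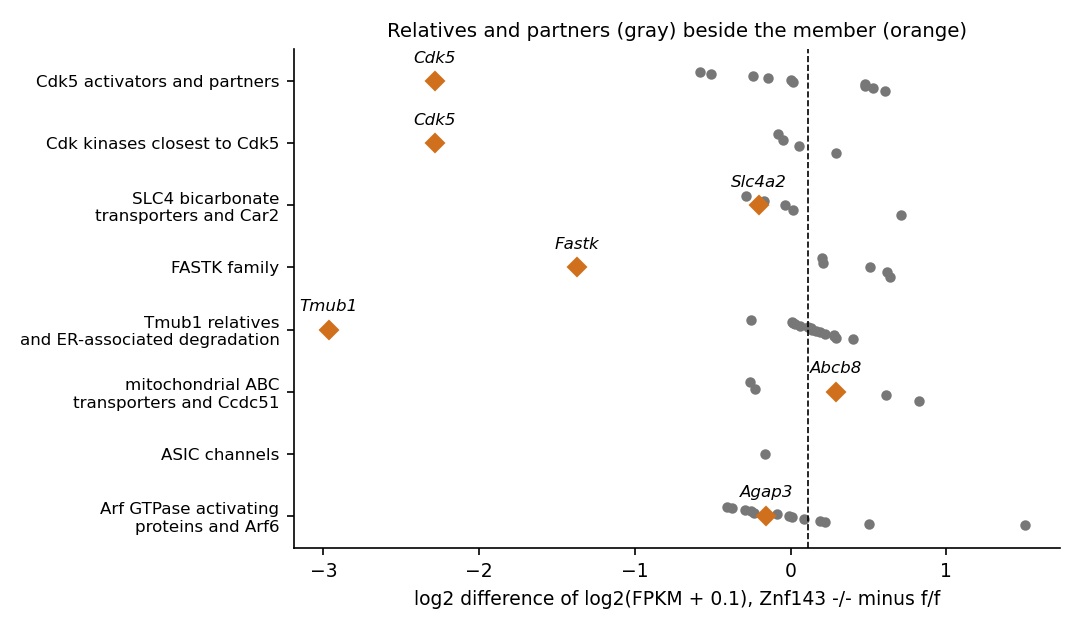
Log2 difference between *Znf143 -/-* and *Znf143 f/f* cells of each tested gene of the 8 lists (gray) and of the member that each list belongs to (orange). The dashed line is the median of all genes, 0.114. *Cdk5*, *Fastk* and *Tmub1* lie below every gene of their lists, and *Slc4a2*, *Abcb8* and *Agap3* lie among theirs.

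Genes with a profile like that of *Cdk5* were found elsewhere in the genome. Over the 6 libraries, among 12551 genes whose FPKM averaged 1 or more, the smallest Euclidean distances from *Cdk5* in centred log2(FPKM + 0.1) were those of *9230112J17Rik* (0.305), *2210016L21Rik* (0.428), *Ptdss2* (0.428), *Ube2d1* (0.472) and *Ube2d-ps* (0.474). Among the neighbors, *Tmub1* stood at 1.12, *Fastk* at 1.21, *Slc4a2* at 2.62, *Agap3* at 2.65 and *Abcb8* at 3.18. *2210016L21Rik* is on chromosome 5 as well, at 114942158 to 114949783, and the other 4 are on chromosomes 9, 7, 10 and 11. *Ptdss2*, phosphatidylserine synthase, had an FPKM of 10.7, 8.24 and 9.76 in *Znf143 f/f* and of 1.46, 1.89 and 1.79 in *Znf143 -/-* libraries. *Ube2d1*, a ubiquitin-conjugating enzyme, had 8.18, 7.21 and 8.44 and 1.47, 1.56 and 1.73. Whether reads of *Ube2d1* can be told apart from those of the pseudogene *Ube2d-ps* was not tested.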

How the data were processed

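The source was 1 deposited table of RNA-seq of HSLAM cells, 3 *Znf143 f/f* and 3 *Znf143 -/-* mice. ChIP-seq and HiC samples were not analysed here. Per the labels and methods, the authors used TrimGalore for trimming, STAR for alignment to GRCm38 and FeatureCounts for counting, and deposited FPKM per gene and library. The columns of their own comparison (mean count, log2 fold change with its error, test statistic and p-values) were not used. Genotypes were taken from the labels.

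FPKM times gene length gave whole fragments (within 0.05) for 138677 of 138696 values (99.986%). FPKM as deposited were used, and genes averaging 0.1 FPKM or more entered a fit without a block (lmFit and eBayes with trend, limma 3.58.1, R 4.3.3) of log2(FPKM + 0.1). Differences on this scale understate the change of low genes. The p-values were adjusted by the Benjamini-Hochberg method over all 19296 genes, with a threshold of 0.05. The fit was tested on simulated data. Coordinates, exons and starts are from GENCODE release 21 for mouse, in which 22193 of 23116 symbols were found, and promoters from RefSeq. Python 3.11.15, numpy 2.4.6, pandas 2.3.3, pysam 0.24.0 and matplotlib 3.10.9 were used.

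The members, gene lists, motifs and rules were chosen with earlier results of these data known. Named were the 7 members, *Zfp143*, all other genes within 250 kb of the *Cdk5* start, in each list the genes called and the 2 with the highest mean FPKM, the 5 genes with the profile closest to *Cdk5*, and divergent pairs with both genes called lower. Some genes of the lists are not reported here by name. Each library is 1 mouse, the mice were 3 pairs of littermates whose members the sources used here do not tie to libraries, and p-values measure the spread between these mice. Alternatives were pseudocounts of 0.01 and 1, other filters, rescaling to median-of-ratios size factors, the own total as divisor of the third *Znf143 -/-* library, voom on recovered fragments, no variance trend, the replicate number as a block, and each library left out. The rescaling without the third *Znf143 -/-* library, the motif CCCANNATG and the count of stretches were added after the data were seen.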

Additional observations from a re-analysis of the deposited data

How the results depend on the processing

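*Cdk5*, *Fastk* and *Tmub1* were called lower in all 17 alternatives, and *Slc4a2*, *Abcb8* and *Agap3* in none of the 17. Since the genes were chosen on this contrast and the fits share the same libraries, these calls are a description. Moves of the log2 differences were set against the SD of each gene between libraries of the same genotype, and not against the SE. By this measure, moves larger than 1 SD were those of *Slc4a2* with voom (-0.35) and of *Fastk* with a pseudocount of 1 (-1.20). So were those of *Tmub1* with a pseudocount of 1 (-2.68) and with voom (-3.13). *Cdk5* moved to -2.00 with a pseudocount of 1, which is within its wider SD. With each library left out in turn, *Cdk5* lay between -2.44 and -2.06, *Fastk* between -1.46 and -1.31, *Tmub1* between -3.04 and -2.85, *Slc4a2* between -0.25 and -0.13, *Abcb8* between 0.16 and 0.40, and *Agap3* between -0.36 and 0.05.

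Of all genes, 577 were called lower after rescaling, 457 with its own total as the divisor of the third *Znf143 -/-* library, 744 with voom and 108 to 529 with a library left out, against 304. Called higher were 82 to 1098 with a library left out, against 529, with the fewest without the third and the most without the first *Znf143 -/-* library. Rescaling without the third *Znf143 -/-* library left 139 lower and 84 higher. The methods give the mice as 3 littermate pairs, without saying which libraries form a pair. Same-numbered libraries did not deviate together (correlations -0.0961, -0.0909 and 0.0311), so that the numbers were not taken as the pairs, which does not show that they are not. The replicate block called 864 genes in place of 833 and ended the calls of *Thyn1* (adjusted p = 0.0558) and *Asap3* (0.0805, limma). After rescaling, the replicate block called 106 lower and 85 higher. Of other genes within 250 kb, 1 was called with a pseudocount of 1, 1 with the block and 0 to 2 with a library left out, against 0, and 0 within 100 kb. Of the list genes, 3 were called after rescaling, 5 with voom, 0 to 1 with a library left out, and 0 with a pseudocount of 0.01, a mean FPKM of at least 1, the block, and rescaling with the block or without the third *Znf143 -/-* library, against 1. Divergent pairs with both genes called lower were 4 with voom, 1 to 3 with a library left out, and 1 without the variance trend, with the block, and after rescaling with the block or without the third *Znf143 -/-* library, against 2. The causes were not tested. A mean FPKM of at least 1 left no value for *2310074N15Rik*. With 3 fragments in a library, its depth limits what can be said.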
